A study of Mus musculus with 12 samples.

Results

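Zrsr1 and Commd1 form a pair of overlapping genes on mouse chromosome 11, and their CpG methylation was measured in the left ventricle of 12 weanling mice. Members were the rows of the deposited methylation table that lay inside either gene or within 5 kb of it, which gave 74 of the 421177 CpG sites in the table. Of these, 47 sites between positions 22971999 and 22972993 (build mm10, the same as GRCm38) form the Zrsr1 core, and the other 27 lie elsewhere in the pair. The core was chosen because its methylation differed between the maternal diets in these same data, so every diet value of the core is a description. Counts of calls in that contrast are printed only beside their share over the whole table, and nothing is read from them.

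The mice were wild-type FVB/N offspring killed at 3 weeks of age, when they were weaned. Their FVB/NJ mothers had eaten a Teklad high-fat diet (HFD) or the PicoLab regular laboratory diet (RD) from 6 weeks of age and were mated after 8 weeks of it with RD-fed males, so fathers did not differ in diet. The HFD group held 3 females and 3 males, and the RD group held 4 females and 2 males. DNA was assayed by reduced representation bisulfite sequencing, which samples fragments cut by MspI at CCGG and reads methylated cytosines as C after bisulfite conversion. The number of mothers is not given in the labels, so some offspring may share one, and p-values measure only the spread between these 12 mice.

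Genomic imprinting silences a gene on the copy from one parent through DNA methylation set in the germline. Zrsr1 is an intronless copy of the X-linked gene Zrsr2 and is known to be expressed from the paternal copy, with its promoter region methylated on the maternal copy. It encodes an RNA-binding zinc-finger protein related to the small subunit of U2AF, the factor that recognises the 3′ end of introns. Commd1, the host gene in whose intron Zrsr1 sits on the opposite strand, encodes a protein of copper handling, NF-κB regulation and endosomal sorting, and starts at an ordinary CpG-rich promoter.

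In the RefSeq gene table for GRCm38.p6, Zrsr1 spans positions 22972005 to 22976496 (4492 bp) and lies wholly inside the span of Commd1, 22899728 to 22984539 (84812 bp). Zrsr1 is read from the plus strand and Commd1 from the minus strand. The RefSeq promoter table lists a Commd1 start at 22982284, called the main start here, and an inner start at 22972866 that falls within the Zrsr1 core. The gene span reaches upstream of the main start to 22984539, and no start at that end was used here. Exon and intron limits were not used here. The 3 start regions are shown because 2 of them bound the core and the third is a start of the host outside it, with every CpG that was measured in capitals and all other bases in lower case. The first 2 run from 250 bases before the start to 30 after it, and the third to 50 after it.
Zrsr1 start, chr11:22971755-22972034, plus strand: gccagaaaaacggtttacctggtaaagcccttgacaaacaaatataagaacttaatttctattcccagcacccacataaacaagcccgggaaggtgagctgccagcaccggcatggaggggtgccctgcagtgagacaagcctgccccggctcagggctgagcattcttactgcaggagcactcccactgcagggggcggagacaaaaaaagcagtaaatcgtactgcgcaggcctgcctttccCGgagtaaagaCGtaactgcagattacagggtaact
Commd1 inner start, chr11:22972837-22973116, minus strand: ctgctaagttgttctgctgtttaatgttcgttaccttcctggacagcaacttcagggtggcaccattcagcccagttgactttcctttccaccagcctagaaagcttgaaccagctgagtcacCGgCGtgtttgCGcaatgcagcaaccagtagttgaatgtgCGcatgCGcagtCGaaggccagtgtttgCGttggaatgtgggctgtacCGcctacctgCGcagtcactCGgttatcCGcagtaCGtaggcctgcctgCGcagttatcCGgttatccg
Commd1 main start, chr11:22982235-22982534, minus strand: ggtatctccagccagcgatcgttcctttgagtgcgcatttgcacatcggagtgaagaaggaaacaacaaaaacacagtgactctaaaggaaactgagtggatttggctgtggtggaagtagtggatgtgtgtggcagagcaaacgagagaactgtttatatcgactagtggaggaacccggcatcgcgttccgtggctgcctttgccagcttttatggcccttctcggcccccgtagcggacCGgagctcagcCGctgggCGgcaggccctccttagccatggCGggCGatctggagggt

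The Zrsr1 start region held 9 CpGs, of which 2 were measured. The inner Commd1 start region held 16, of which 14 were measured, and the main Commd1 start region held 18, of which 5 were measured. The windows of the Zrsr1 start and the inner Commd1 start, which reach into the core from either side, repeat the letters CTGCGCA. Searched on both strands of the full 300-base windows, with overlapping matches counted as 1 place, these letters occurred at 2 places at the Zrsr1 start, 4 at the inner Commd1 start and 0 at the main start. They occurred in 5.46% of 32851 RefSeq promoter windows of the same length, at 2 or more places in 0.463% and at 3 or more in 0.0517%. The letters were chosen after the sequences had been read. The inner Commd1 start also held the consensus of the transcription factor NRF1 once, overlapping 1 of the 4 places, against 0.971% of all windows. The letters TGCCGC, bound by the imprint-keeping protein ZFP57 when methylated, were found once at the main Commd1 start and in neither of the windows that overlap the core, against 11.6% of all windows. The larger part of the core lies between these windows and was not searched, so their absence from the core is not shown.

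Sites fell into 4 classes by position. The Zrsr1 core held 47 sites, of which 42 had a value in all 12 mice, and the Zrsr1 body downstream of it (22973118 to 22974117) held 12, of which 9 were complete. The main Commd1 start held 13 sites (22982136 to 22982292) and the flank upstream of Commd1 held 2 (22988956 and 22989005), all of them complete. No member site fell in the long part of Commd1 below the core. Read counts do not stand beside the percentages. The depth of each value was not worked out, so depth was not compared between diets. Between 385299 and 417081 sites had a value in each HFD library and between 391923 and 414414 in each RD library. Library numbers ran from 2 to 8 in HFD and from 9 to 14 in RD, so library order and diet cannot be told apart.

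Level along the pair was compared first, to set the core against the other member sites. The core was methylated at 66.5% ± 8.17 (SD, n = 12), the Zrsr1 body at 61.4% ± 8.03 and the upstream flank at 68.7% ± 6.07, whereas the main Commd1 start was nearly free of methylation at 0.860% ± 0.659. All 24 complete sites outside the core averaged 29.2% ± 3.12. They were 9 sites of the Zrsr1 body, 13 of the Commd1 start and 2 of the flank. Only those of the Commd1 start are host sites away from the retrogene. The core exceeded them by 37.3 percentage points ± 7.82 (SD of the within-mouse difference) and was higher in 12 of 12 mice. An exact paired permutation test over the signs of the 12 differences gave p = 0.000488, the smallest this design allows, and 0.00122 after Benjamini-Hochberg adjustment over 5 such comparisons (two-sided). That difference rested on the Commd1 start. When sites with a mean rate outside 5 to 95% were left out, which removes all 13 of its sites, the difference was 3.75 points (exact permutation p = 0.161). With medians over sites in place of means it was 62.3 points.

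Taken class by class, the core stood above the Commd1 start by 65.6 points ± 8.22, in 12 of 12 mice (exact paired permutation test, adjusted p = 0.00122). Core sites were chosen for a diet difference, which sites near 0% can hardly show. The sign of this difference was thus largely set by that choice, also in the comparison with all other sites. Against the Zrsr1 body the difference of 5.09 points ± 8.77 did not pass (exact paired permutation test, adjusted p = 0.0897). It passed when HFD female 2 was left out (6.35 points, adjusted exact permutation p = 0.0354) or HFD male 3 (6.40 points, 0.0317), and with no other mouse left out. It was 10.2 points ± 6.47 (SD, n = 6) in RD mice, all 6 of them higher in the core, and -0.0651 points ± 7.97 (SD, n = 6) in HFD mice, of which 3 were higher. Against the upstream flank the difference of -2.25 points ± 12.7 did not pass either (exact paired permutation test, adjusted p = 0.552). Here the diets lay on opposite sides, at -12.0 points ± 10.2 (SD, n = 6) in HFD mice, with the core higher in 1 of 6, and 7.56 points ± 4.63 (SD, n = 6) in RD mice, with the core higher in 6 of 6. With 1 mouse left out it went from -3.69 points (without RD female 1) to -0.340 points (without HFD female 4). Of the 4 classes, only the main Commd1 start was nearly unmethylated, and the other 3 were intermediate.

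**Figure D1:**
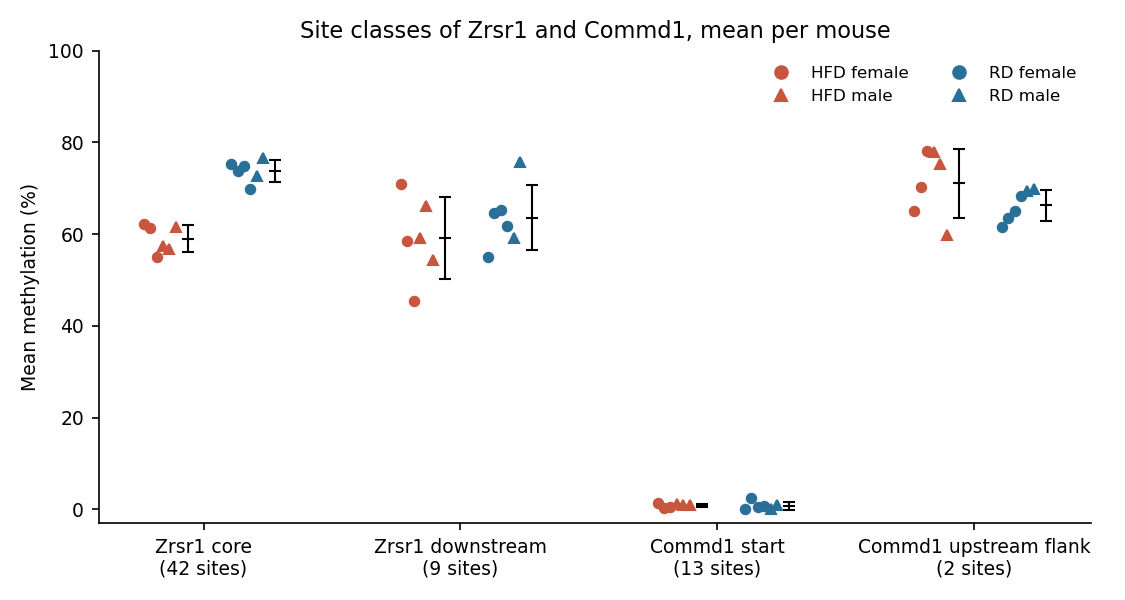
Mean methylation per mouse (vertical axis, %) in the 4 site classes, with HFD mice in red, RD mice in blue, females as circles and males as triangles; black bars give the mean and SD of 6 mice. The core shows HFD mice at 55.0 to 62.2% and RD mice at 69.8 to 76.6%, the Commd1 start lies near 0, and the other classes overlap between diets.

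Core methylation by diet is given next, as a description. In HFD females 2, 3 and 4 the mean over the 42 complete core sites was 62.2%, 61.3% and 55.0%, and in HFD males 2, 3 and 4 it was 57.5%, 56.7% and 61.6%. RD females 1 to 4 had 75.4%, 73.9%, 74.8% and 69.8%, and RD males 1 and 2 had 72.8% and 76.6%. The highest HFD mouse thus lay 7.57 points below the lowest RD mouse. The group means were 59.1% ± 3.04 in HFD and 73.9% ± 2.39 in RD (SD, n = 6 each), a difference of -14.8 points. It was -14.0 points in females and -16.1 points in males.

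All 42 complete core sites had a lower mean in HFD, where 52.9% of the 157524 autosomal sites tested did. At 13 of the 42 the highest HFD value was under the lowest RD value, against 0.335% of those sites. With limma, a linear model with moderated variances fitted to all sites, 0 of 53 member sites had an adjusted p under 0.05 for diet, and 0.0102% of all sites were called. An unadjusted p under 0.05 was found at 24 of the 53 and at 6.53% of all sites. Of 4 member tiles of 500 bp, 1 was called (22972500 to 22972993, 31 sites), against 0.0294% of all tiles. These counts repeat the contrast that chose the core. In this bulk tissue, a change within every cell and a change in the mix of cells cannot be told apart.

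Autosomal sites of intermediate level also separated the diets, by far less. Over 60636 autosomal sites with a mean rate of 20 to 80%, HFD mice averaged 55.6% ± 0.289 and RD mice 56.6% ± 0.663 (SD, n = 6 each), a difference of -0.938 points. The highest HFD mouse, at 55.95%, lay just under the lowest RD mouse, at 55.997%. Of 18 marker genes of heart muscle, endothelium, fibroblasts and blood, 4 had at least 3 complete sites within 1 kb of a gene end. Ryr2, the calcium release channel of heart muscle, lay at 2.29%, and Tnnt2 and Myh6, which encode sarcomere proteins, at 48.3% and 69.2%. HFD and RD means of these differed by 0.0230, 1.26 and -3.81 points. Tie1, an endothelial receptor, averaged 27.9% ± 5.42 in HFD and 37.7% ± 8.28 in RD mice with overlapping values (limma, unadjusted p = 0.0343, adjusted p = 0.587). No marker of fibroblasts or blood had such a window, so the part of cell mix in the core values was not tested.

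The difference was not even along the core. Each site was joined to the segment whose last site lay within 60 bp and differed least from it, by under 6 points on average over the mice, a rule chosen after seeing the data. Segments can thus interleave, as at 22972992 and 22972993. This gave 9 segments in the core. Sites of a segment lie close enough to share reads, so they are not separate measurements. All 9 segments had a lower mean in HFD over all mice (9 in females and 8 in males), with differences from -28.4 to -4.76 points. In 3 of them the diets did not overlap (0.467% of all 500 bp tiles). Segments are shorter than such tiles and were formed from these values, so the shares are not alike. The 3 segments adjoin, as the ends of a single MspI fragment and the other cytosine of the CpG at 22972992 and 22972993.

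**Figure D2:**
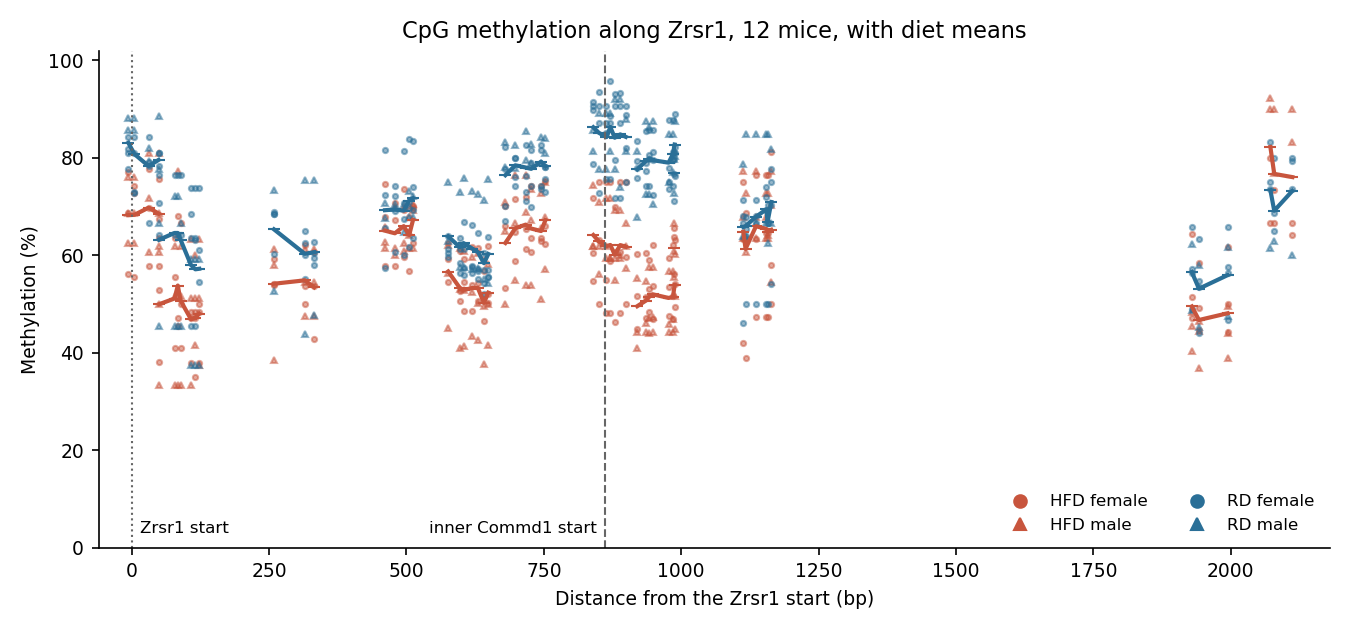
Methylation of each CpG (vertical axis, %) against distance from the Zrsr1 start (bp) in 12 mice, with symbols for diet and sex and thick lines for the diet means within each segment. Within the core the diet means lie closest at 461 to 512 bp and farthest apart at 840 to 988 bp, around the inner Commd1 start, and approach each other again from 1113 bp on.

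At the Zrsr1 start itself (22971999 to 22972054, 4 sites), HFD mice ranged from 56.9 to 78.6% with a median of 70.6%, and RD mice from 76.1 to 86.1% with a median of 80.1%. The ranges overlapped slightly, and the means differed by -11.7 points. The next 2 segments, 22972055 to 22972128 and 22972264 to 22972337, were lower in level. HFD averaged 47.1% ± 9.34 and 54.2% ± 6.57 there and RD 57.6% ± 13.6 and 62.1% ± 8.61 (SD, n = 6 each), with broad overlap. In the first of them the sexes went opposite ways, at -18.2 points in females and 1.74 points in males.

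The smallest difference of the core was at 22972466 to 22972517, a segment of 5 sites. HFD mice ranged from 58.9 to 71.9% with a median of 66.0%, and RD mice from 60.7 to 80.5% with a median of 70.1%. Nearly all of their values were shared between diets, and the means differed by -4.76 points. It held the 3 core sites with the smallest differences, 22972500, 22972466 and 22972517, at -3.19, -4.20 and -4.45 points. Beyond it, the 7 sites of 22972581 to 22972654 differed by -8.10 points and the 6 sites of 22972685 to 22972758 by -12.7 points, both with overlap.

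The largest differences lay around the inner Commd1 start, on a single MspI fragment that was read from both ends. Its CCGG ends start at 22972844 and 22972991, 147 bp apart. The plus strand gave 7 sites (22972845 to 22972904) and the minus strand gave 7 others (22972925 to 22972993), which are the capitals in the inner start sequence. On the plus strand HFD females 2, 3 and 4 had 59.8%, 73.8% and 49.4%, and HFD males 2, 3 and 4 had 59.7%, 59.7% and 70.6%. RD females 1 to 4 had 91.6%, 85.7%, 90.3% and 74.5% on that strand, and RD males 1 and 2 had 89.4% and 78.8%. The margin between the diets was narrow, with HFD female 3 just below RD female 4.

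On the minus strand HFD females 2, 3 and 4 had 61.0%, 52.8% and 47.3%, and HFD males 2, 3 and 4 had 43.9%, 47.1% and 57.0%. RD females 1 to 4 had 74.7%, 79.4%, 86.4% and 79.2%, and RD males 1 and 2 had 73.7% and 85.8%. Here the diets stood well apart, and the part of depth in this was not tested. The strand means were 62.2% ± 8.81 in HFD against 85.1% ± 6.91 in RD on the plus strand, and 51.5% ± 6.58 against 79.9% ± 5.35 on the minus strand (SD, n = 6 each). The 3 core sites with the largest differences, 22972990, 22972993 and 22972941, were all minus-strand sites of this fragment, at -29.3, -28.8 and -28.7 points.

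The ends of this fragment did not give the same level within a mouse. The minus-strand sites lay below the plus-strand sites in 9 of 12 mice, and over all 12 the mean of minus less plus was -7.92 points with an SD of 9.26. In HFD female 3 the minus strand differed from the plus strand by -21.1 points, and in RD male 2 the order was turned, with the minus strand 6.95 points higher. The sites read on the strands are different CpGs, so strand and position cannot be told apart. The plus-strand cytosine at 22972992, which opens the next fragment, averaged 61.4% ± 4.78 in HFD and 76.9% ± 4.09 in RD (SD, n = 6 each) and did not overlap between diets.

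**Figure D3:**
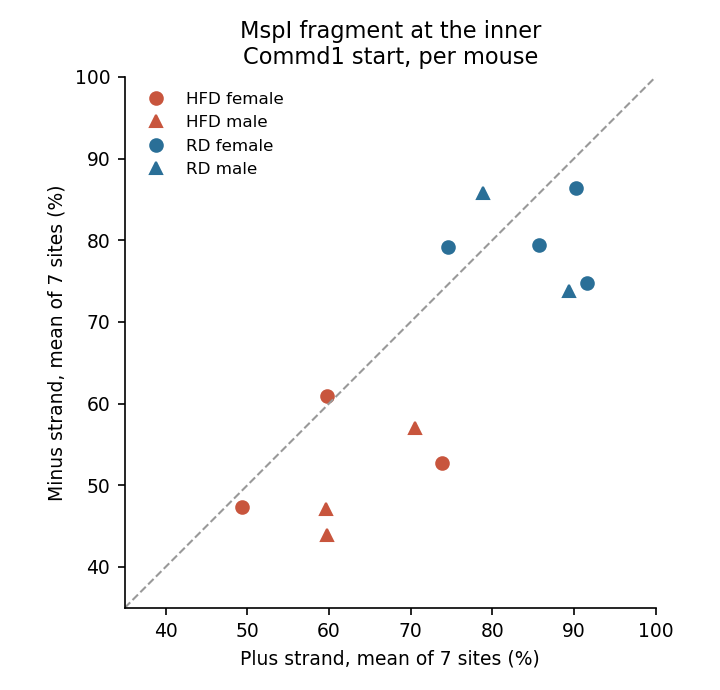
Mean of 7 minus-strand sites (vertical axis, %) against mean of 7 plus-strand sites (horizontal axis, %) of the MspI fragment at the inner Commd1 start, 1 symbol per mouse; the dashed line marks equal values. HFD mice lie at 49.4 to 73.8% on the plus strand and 43.9 to 61.0% on the minus strand, below RD mice on both, and 9 of 12 mice lie under the line.

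Leaving out the last 15 sites of the core, which are the 14 of this fragment and 22972992, an alternative chosen after seeing the data, reduced the difference. The other 27 complete sites averaged 60.1% ± 1.76 in HFD and 69.3% ± 2.72 in RD mice (SD, n = 6 each), a difference of -9.20 points. HFD mice then ranged from 58.1 to 63.0% and RD mice from 65.8 to 73.6%, still without overlap.

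Mice did not keep their order along the core. HFD male 2 was the highest of the 6 HFD mice in 3 of 9 segments and the lowest in 2. RD female 4 was the lowest RD mouse in 4 segments and the highest in 1, and RD male 2 was the highest in 3 and the lowest in 1. The mean over the whole core spread less between mice than any core segment did: its SD was 3.04 in HFD and 2.39 in RD, against 4.78 or more and 4.09 or more in the segments.

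**Figure D4:**
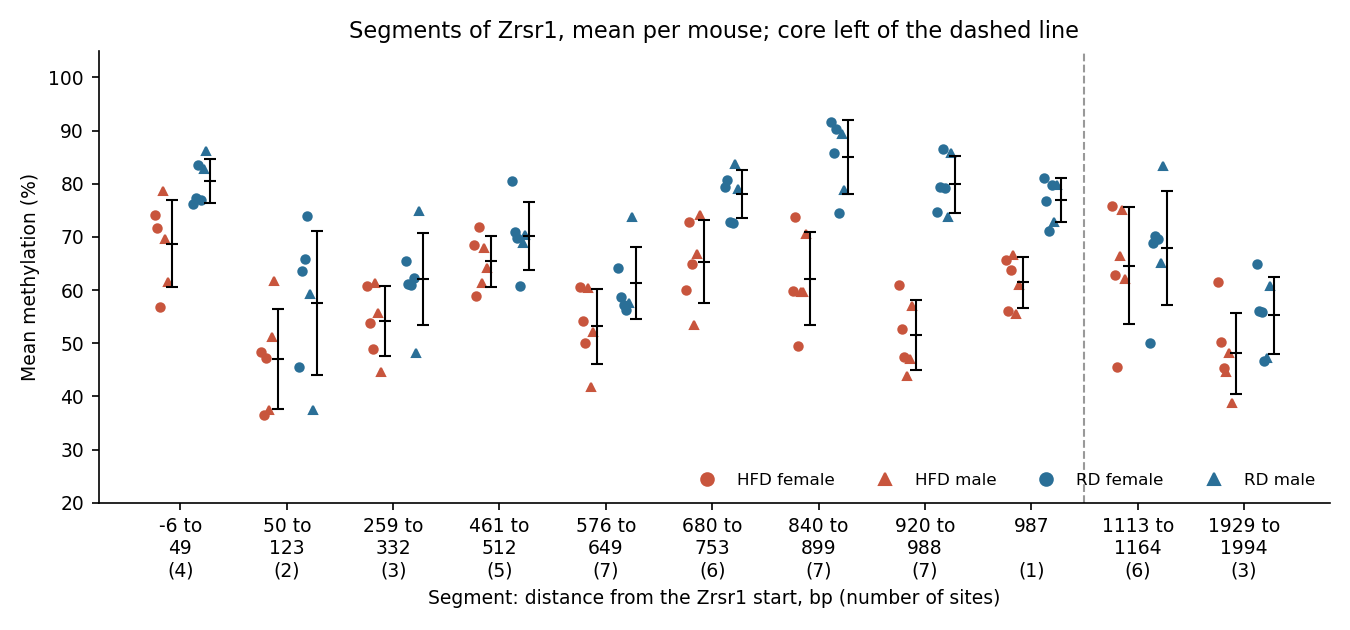
Mean methylation per mouse (vertical axis, %, from 20) in each segment of Zrsr1, labelled by distance from the Zrsr1 start and number of complete sites; black bars give mean and SD of 6 mice. The diets separate in the 3 segments from 840 to 988 bp and overlap in the other 6 core segments and in the plotted segments of the body.

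The rule set the border of the core, and the values on each side are a description. At the last core site, 22972993, HFD mice averaged 53.9% ± 6.83 and RD mice 82.8% ± 4.79, and at the next site, 22973118, the values were 64.9% ± 12.5 and 65.8% ± 10.9 (SD, n = 6 each). In the Zrsr1 body, HFD females 2, 3 and 4 had means of 71.0%, 58.6% and 45.5%, and HFD males 2, 3 and 4 had 59.2%, 66.1% and 54.3%. RD females 1 to 4 had 55.0%, 64.7%, 65.4% and 61.9%, and RD males 1 and 2 had 59.1% and 75.8%. The ranges overlapped from 55.0 to 71.0%, and the means were 59.1% ± 8.93 in HFD and 63.6% ± 7.06 in RD (SD, n = 6 each), a difference of -4.52 points. The body segment at 22973934 to 22973999 differed by -7.11 points, more than the core segment at 22972466 to 22972517. All 9 complete sites of the body had a lower mean in HFD (52.9% of all sites), and 0 of them separated the diets (0.335% of all sites had HFD below RD throughout), a share that 9 sites cannot tell from the background. The 3 farthest sites, 22974077 to 22974117, had values in 4 mice of each diet only, and there the HFD mean was higher by 2.82 to 8.85 points with overlap.

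The main Commd1 start was nearly free of methylation in every mouse. HFD mice ranged from 0.389 to 1.37% with a median of 0.977%, and RD mice from 0 to 2.52% with a median of 0.590%. The ranges overlapped, and 11 of 13 sites had a higher mean in HFD. Of the 157524 autosomal sites tested 52.9% were lower in HFD, but that set leaves out sites this close to 0. At those 11 sites (22982166 to 22982281) all RD mice were listed at 0, and HFD means were 0.246 to 1.21%. Values this close to 0 can rest on very few methylated reads. Depth at these sites was not compared between the diets, so no diet pattern is read from them. In the upstream flank, HFD mice had 59.8 to 78.2% with a median of 72.8% and RD mice 61.7 to 69.9% with a median of 66.7%, and their means of 71.1% ± 7.46 and 66.3% ± 3.41 (SD, n = 6 each) differed by 4.78 points toward HFD. Over all 24 complete sites outside the core the difference was -1.24 points, smaller than the spread between mice, with 11 sites lower and 13 higher in HFD.

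Sex was not used to choose the members and was tested. The 7 females averaged 67.5% ± 8.01 (SD) over the core and the 5 males 65.1% ± 9.11 (SD). These SDs hold the gap between the diets, and RD mice make up 4 of 7 females and 2 of 5 males. The difference was 2.41 points (exact permutation test within diets, two-sided, p = 0.540, adjusted p = 0.750 over 5 comparisons). Within HFD it was 0.868 points and within RD -1.25 points, and the mean of both, an alternative added after seeing the data, was -0.193 points (exact permutation p = 0.903). The Zrsr1 body, the Commd1 start and the upstream flank differed by -2.62, 0.0737 and -3.03 points, with exact permutation p-values of 0.6, 0.877 and 0.413. The sign of the first turned without RD male 2 (0.601 points), and that of the second without RD female 2 (-0.198 points), RD male 1 (-0.130 points) or HFD female 2 (-0.00633 points). The flank difference was -5.70 points without HFD male 4 (exact permutation p = 0.0467, adjusted p = 0.117). Site by site, 0 of 53 member sites tested with limma had an adjusted p under 0.05 for sex, and 0 had an unadjusted p under 0.05, where 0% and 5.30% of all 157524 sites did. The smallest adjusted p was 0.958, at 22973122 in the Zrsr1 body. Of the 4 member tiles, 0 were called for sex by limma and 0 had an unadjusted p under 0.05, with 0.0168% of all tiles called and 5.56% at an unadjusted p under 0.05.

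The X-linked relative Zrsr2, of which Zrsr1 is a copy and which takes part in the splicing of minor-class introns, was compared alongside. Its 21 complete sites within 1 kb of a gene end (X, 163958351 to 163958602) averaged 20.9% ± 2.45 (SD) in the 7 females and 1.68% ± 2.54 (SD) in the 5 males. Females ranged from 17.6 to 24.6% and males from 0 to 6.12%, with no overlap. The difference of 19.3 points gave p = 0.00333 in the exact permutation test within diets, the smallest that 300 arrangements allow, and 0.0167 after adjustment. Without RD male 1 or RD male 2 the differences were 18.9 and 18.8 points, and the adjusted exact permutation p was 0.05, at the threshold.

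Whether the diet difference itself differed between the sexes was tested as an interaction. With limma, 0 of 53 member sites and 0 of 4 member tiles passed, and 0 of either had an unadjusted p under 0.05. Of all sites 0% were called, and of all tiles 0%, and 5.11% of sites and 5.09% of tiles had an unadjusted p under 0.05. The smallest adjusted p among member sites was 0.980, at 22972121, where the interaction was -1.12 ± 0.669 (SE) on the log2 ratio scale. With 2 RD males the interval around such a value is wide, and these tests do not show that the sexes respond alike.

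Related genes were read through windows of 1 kb on each side of both gene ends. Nap1l5, another imprinted retrogene inside an intron of a host (Herc3), encodes a relative of nucleosome assembly proteins. Its window (chromosome 6, 58906634 to 58906769, 8 sites) was intermediate, at 53.3% ± 9.69 in HFD and 46.4% ± 9.33 in RD mice (SD, n = 6 each). HFD mice ranged from 35.7 to 61.3% and RD mice from 38.4 to 63.3%, so the diets overlapped, and the difference of 6.84 points toward HFD did not pass (limma adjusted p = 0.819). In level, the Zrsr1 core was 16.6 points ± 15.1 higher than Nap1l5, in 10 of 12 mice (exact paired permutation test, p = 0.00537, adjusted p = 0.00895). That gap was 5.78 points ± 11.7 in HFD and 27.4 points ± 9.18 in RD mice (SD, n = 6 each). The core was higher in 4 of 6 HFD mice and 6 of 6 RD mice. Its values hold the diet difference that chose the core, so the pooled test is not free of that choice.

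The other hosts were compared at their ends. Herc3, an E3 ubiquitin ligase, lay at 2.61% over 15 sites, and the window of Inpp5f, a phosphoinositide phosphatase gene whose inner transcript is imprinted, lay at 2.69% over 23 sites. Mcts2, an imprinted retrogene inside H13, had 12 listed sites near its ends and 0 with values in all 12 mice. Of the COMMD family and the complex it works in, 8 of 13 genes had a window, and 6 of the 8 averaged under 5%. Commd5 lay at 24.5%. Ccdc93, a subunit of the complex, had 32.9% ± 0.658 in HFD and 33.2% ± 1.45 in RD mice (SD, n = 6 each; limma adjusted p = 0.987). Of the 5 genes of 3′ splice site recognition, 4 had a window. U2af1 and U2af2, the subunits of U2AF, lay at 0.954% and 1.01%.

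Of the 6 protein-coding neighbours within 500 kb of Commd1, B3gnt2, Cct4 and Xpo1 had a window, at 0.529%, 0.853% and 1.14%. Over the 4 lists, 18 of 29 genes had a window and 4 were autosomal with a mean rate of 5 to 95% and were tested for diet. With limma 0 of these 4 were called and 1 had an unadjusted p under 0.05, where 0.113% of all 4431 windows were called and 7.83% had an unadjusted p under 0.05. That gene was U2af1l4, a U2AF small-subunit relative, at 52.3% ± 4.09 in HFD and 58.0% ± 2.98 in RD mice (SD, n = 6 each; limma adjusted p = 0.587). The median difference was 0.443 points in the retrogene list, 0.0556 in the COMMD list, -1.69 in the splice site list (which holds the X-linked Zrsr2) and -0.197 among the neighbours, beside 0.0968 over all 11123 windows.

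Tiles that varied most like the core over the 12 mice were ranked by Pearson's r among 9027 tiles of intermediate level outside the pair. The highest r was 0.947, in Impact, another imprinted gene, followed by Clmp (0.935), a cell adhesion gene, Gm30782 (0.931, nearest gene), Gm36752 (0.930) and Rgs3 (0.927), a regulator of G-protein signalling. All 5 were lower in HFD, with differences from -42.7 to -11.9 points, so this likeness holds the diet difference that chose the core. After the mean of each diet was subtracted, the order was different. The tiles nearest to the core were then near Commd8 (0.910), in Popdc2 (0.891), a cAMP-binding membrane protein of muscle, in Zbtb16 (0.872), a zinc-finger repressor, in B830017H08Rik (0.868) and near Cycs-ps3 (0.858). These are descriptions over 12 mice chosen from many tiles, with no test.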

How the data were processed

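Methylation was measured in 12 left ventricles. The authors deposited 1 table of percent methylation per CpG and sample, per the file headers. FastQC, Trim Galore, Bismark 0.19, limma and the build mm10 are listed in the submitters' processing notes without roles. The coverage minimum and the handling of strands are not given in the sources used here. All columns matched 1 sample each, and 99.98% of the 45522 table positions inside RefSeq promoter windows (GRCm38.p6) fell on a CpG.

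The members and lists were chosen with earlier results of these data known. Class and segment means used sites with values in all 12 mice. Fits across all features used limma 3.58.1 (R 4.3.3) on log2((rate + 0.05)/(1 − rate + 0.05)) with rates as fractions, for autosomal sites, 500 bp tiles and gene-end windows (at least 3 sites each) with a mean rate of 5 to 95%. Diet and sex were additive terms, and the interaction was the difference of the diet effects of the sexes. P-values (two-sided) were Benjamini-Hochberg adjusted across every feature tested, with a threshold of 0.05. The log2 ratio is the scale of the tests, and levels are percentages.

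The exact tests enumerated all arrangements. The paired test and the main sex test were checked on made-up values with known answers, and limma on simulated data. Named sites were the 3 core sites with the largest and the 3 with the smallest diet difference. The member site with the smallest p was named where none was called. In lists, called genes or else the gene with the smallest p were named along with the compared retrogenes, their hosts and Zrsr2, and in the likeness ranking the 5 highest tiles, 1 per gene. The other list genes and the markers printed were named after their values were seen. A test of read counts and a coverage minimum were meant for a file with counts and were not used, since the table holds percentages only. Alternatives covered the offset, the scale, the limits on the mean rate, variances, a replicate block, missing values, the width of tiles and windows, and each mouse left out in turn. Figures were drawn with matplotlib 3.10.9.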

Additional observations from a re-analysis of the deposited data

Results flagged for a closer look

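Among 58 groups of values, 1 held a mouse farther from the rest of its diet group than Dixon's criterion allows, and about 2.9 are expected by chance. The mouse was HFD male 4, with values at 385299 sites of the whole table, against 406225 to 417081 in the other 5 HFD mice. It had 71 of the 74 member sites, and its core mean of 61.6% lay within the HFD range. The part of depth in its values was not tested.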

How the results depend on the processing

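The core exceeded the other member sites by 36.1 to 38.4 points when any 1 mouse was left out, and the call held in all of those fits. It was lost with sites of a mean rate of 5 to 95% only (3.75 points, exact permutation p = 0.161), since that limit leaves out the Commd1 start, and the difference was 62.3 points with medians over sites. The core's diet difference was -15.6 to -14.0 points with any 1 mouse left out and -9.20 points without the 14 sites of the fragment at the inner Commd1 start and the site 22972992, an alternative chosen after seeing the data. The other alternatives, such as the median over sites or the mean over segments, moved it by less than the spread between mice. The diet difference outside the core was -2.08 to -0.254 points with any 1 mouse left out. The sex difference of the core was 0.335 (without HFD male 3) to 5.31 points (without RD male 2) and did not pass in any of the 12 fits (exact permutation p from 0.320 to 0.873), and it changed sign as the mean of the differences within each diet (-0.193 points). With any 1 mouse left out, adjusted exact permutation p-values were 0.00244 for the level against the Commd1 start and 0.00488 to 0.0179 against Nap1l5. Those calls held, within the limits that the choice of the core sets. The level against the Zrsr1 body gave 0.0317 to 0.179 and passed without HFD female 2 (0.0354) or HFD male 3 (0.0317) only. Zrsr2 gave 0.025 to 0.05 and did not pass without RD male 1 or RD male 2, where fewer arrangements remain. The level against the upstream flank was -3.69 to -0.340 points (0.338 to 0.925). Sex differences were -4.76 to 0.601 points in the Zrsr1 body, -0.198 to 0.189 at the Commd1 start and -5.70 to -1.17 in the flank, with adjusted p-values of 0.117 or more in each. Counts of member sites, member tiles and list windows called with limma for sex, interaction or, in the lists, diet were 0 under every alternative run, leaving out each mouse included. The replicate numbers of the titles showed no sign of pairing, as over 13 same-numbered pairs the deviations from the group means correlated at -0.0667 to 0.0113. Whether same-numbered mice shared a mother or a batch was not tested. With a replicate block, member sites called for sex stayed at 0 with a smallest limma adjusted p of 0.891. The coverage minimum of 10 reads was left out, as coverage is not listed beside the percentages. The depth behind single values was not worked out.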

Other observations

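At 22982292, in the main Commd1 start, RD female 2 had 26.7%, while the other 11 mice had 0 to 7.14%. This site is the only one of its class that lies upstream of the start, and it was singled out after its value was seen.

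In the core, 2 CpGs had values for the cytosine of each strand. At 22972054 and 22972055, the 10 mice with both values averaged 73.7% and 55.3%, with the second cytosine lower in 8 of 10. At 22972992 and 22972993 the means over 12 mice were 69.2% and 68.3%, but single mice differed by -21.7 to 17.8 points. The second cytosine was lower in HFD (53.9% against 61.4%) and higher in RD (82.8% against 76.9%). The cause was not tested.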
